A study of Mus musculus with 6 samples.

Results

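The collagen genes were taken as the protein-coding genes of the mouse annotation (GENCODE M21) whose symbol has the form Col, number, a, number, such as Col1a1 or Col11a2. There were 44 of them among 21827 protein-coding genes. Open chromatin was measured by ATAC-seq, in which the transposase Tn5 inserts sequencing adapters into accessible DNA. The tissue was freshly dissected face of wild-type (WT) mouse embryos at stage e11.5, with about 50000 nuclei per reaction and single reads of 50 bp. The 6 libraries were 2 labelled maxillary process, 2 labelled mandibular process and 2 labelled nose, all untreated. The cell type is given as mixed, and no source used here states whether the tissue of several embryos was pooled or whether both replicates of a tissue were taken from different embryos, so the spread between them may be technical. Peaks of all 6 lists that overlapped by at least 1 bp were merged into 382006 regions on the genome build mm10 (GRCm38). A region was counted for a collagen gene if the summit of its strongest peak lay inside the gene body, also where the body of another gene overlapped it. A summit outside every protein-coding gene body was counted if its nearest start site was that of the gene, at most 100 kb away. This gave 1451 collagen regions, of which 1099 lay inside the gene bodies and 352 outside. The nearest start site of 378 regions belonged to another gene, and these were counted by the gene body alone.

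Collagens are the main structural proteins of the extracellular matrix, built of 3 chains wound into a triple helix. Fibrillar collagens form the fibrils of skin, bone and cartilage. FACIT collagens (fibril-associated collagens with interrupted triple helices) sit on the surface of those fibrils, network collagens form the sheets of basement membranes, and other classes make beaded filaments, anchor epithelia or cross the plasma membrane. At this stage the facial processes consist mostly of mesenchyme derived from the neural crest, covered by epithelium, and the face skeleton that will be rich in types I, II, IX and XI collagen is only beginning to be laid down.

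Before the results, the labels have to be set beside the data. The lists of the 4 jaw libraries were deposited under names that carry the abbreviation of the other jaw process. Of the 40 regions of Hand2, a transcription factor gene of the lower jaw, 4 were called in the pair of libraries labelled maxillary process but in neither of the pair labelled mandibular process, and 0 the other way. Alx1, a transcription factor gene of the upper face, had 0 regions of the first kind and 4 of the second, and Alx4 had 0 and 2. Dlx5, a lower jaw gene, had 0 and 2. Over all 382006 regions, 3.52% were of the first kind and 5.4% of the second. The counts of Alx1, Alx4 and Dlx5 thus leaned the way of all regions, and those of Hand2 the other way. By these small counts alone, Hand2, Alx1 and Alx4 ran against the labels and Dlx5 ran with them. So counted, Dlx6 (2 and 3), Pou3f3 (4 and 3) and Hand1 (0 and 0) showed little or no lean. Regions called per library, maxillary before mandibular process, were 28 and 27 against 20 and 21 for Hand2. They were 16 and 14 against 25 and 22 for Alx1, and 11 and 12 against 16 and 16 for Alx4. For Hand1 they were 12 and 15 against 11 and 11. In these genes the pairs did not overlap. Hand2, Alx1 and Alx4 again ran against the labels, Alx1 and Alx4 also with the lean of all regions. The pairs overlapped for Dlx5 (11 and 9 against 10 and 10), Dlx6 and Pou3f3. The labels were kept, and each direction between the maxillary and mandibular process below is a direction between libraries so labelled. Promoters of marker genes of other cell types were called in all 6 libraries for 4 of 7 epithelial, 2 of 5 endothelial, 4 of 5 muscle, 4 of 5 neuronal, 1 of 4 glial and 1 of 4 blood and macrophage genes, beside 65.6% of all protein-coding genes, and their part in the results was not tested. The lists held 219779 to 299731 summits, and the lowest −log10 q was 1.3 in 4 of them, 1.62 in replicate 1 of mandibular process and 2.55 in replicate 2 of maxillary process. The files give no read depth. In such bulk tissue, fewer cells with an open region and a less open region in each cell cannot be told apart.

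Sequences are shown for the regions on which the results turn, as 201 bases centred on the summit, plus strand, from the RefSeq copy of GRCm38. Capitals mark matches to short motif words fixed for the whole set, on either strand. For SOX factors the words were ACAAAG and also AACAAT, for AP-1 the word was TGANTCA, for RUNX factors TGTGGT, for homeobox factors TAATTA, for AP-2 GCCNNNGGC, for SP and KLF factors GGGCGG, for TEAD factors GGAATG, for forkhead factors TGTTTAC, for the E-box CAGATG and for ETS factors CCGGAA. The letters CCAAT and a word of the CTCF motif were searched as well. A match is a run of letters and not evidence of binding. The first 3 regions were called in the libraries of 1 label only, with the highest rank in the weaker library, namely maxillary process, mandibular process and nose in this order. They lie at chr1:24410052-24410673 (exon 15 of Col19a1), chr1:45286602-45286957 (intergenic, 24.8 kb before the start of Col3a1) and chr6:8046450-8047034 (intron 27 of Col28a1), and the windows shown are chr1:24410134-24410334, chr1:45286642-45286842 and chr6:8046830-8047030.
Col19a1 region 48: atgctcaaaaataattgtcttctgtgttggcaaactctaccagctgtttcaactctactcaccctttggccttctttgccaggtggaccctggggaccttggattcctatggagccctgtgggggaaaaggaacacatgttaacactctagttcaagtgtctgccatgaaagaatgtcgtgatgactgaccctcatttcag
Col3a1 region 9: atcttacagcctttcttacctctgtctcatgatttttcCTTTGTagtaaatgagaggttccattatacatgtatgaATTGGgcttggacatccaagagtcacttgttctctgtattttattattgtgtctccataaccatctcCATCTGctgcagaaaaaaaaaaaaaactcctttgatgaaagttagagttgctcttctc
Col28a1 region 12: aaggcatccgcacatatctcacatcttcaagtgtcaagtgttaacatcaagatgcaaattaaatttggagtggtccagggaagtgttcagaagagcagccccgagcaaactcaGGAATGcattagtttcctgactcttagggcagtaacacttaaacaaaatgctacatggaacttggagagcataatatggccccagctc
The first holds none of the words. The second holds 1 SOX word, 1 CCAAT and 1 E-box, and the third 1 TEAD word.

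The next 5 regions were called in every library. Among collagen regions over 1 kb from a start site, Col1a2 region 23 had the highest percentile by −log10 q in its weakest library, apart from a region described below. The other 4 differed in strength between labels. The windows are chr6:4489477-4489677, chr1:45385627-45385827 (intron 45 of Col5a2), chr3:113953742-113953942 (intergenic, before Col11a1), chr1:24239680-24239880 (intron 36 of Col9a1) and chr9:79653872-79654072 (intron 31 of Col12a1).
Col1a2 region 23: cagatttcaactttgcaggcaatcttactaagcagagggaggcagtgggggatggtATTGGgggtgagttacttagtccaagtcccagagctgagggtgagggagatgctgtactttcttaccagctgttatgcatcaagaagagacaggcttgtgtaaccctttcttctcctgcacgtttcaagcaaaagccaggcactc
Col5a2 region 3: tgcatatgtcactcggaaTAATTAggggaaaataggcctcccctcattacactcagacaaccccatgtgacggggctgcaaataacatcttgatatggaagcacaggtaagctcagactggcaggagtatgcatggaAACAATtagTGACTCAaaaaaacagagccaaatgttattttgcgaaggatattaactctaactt
Col11a1 region 10: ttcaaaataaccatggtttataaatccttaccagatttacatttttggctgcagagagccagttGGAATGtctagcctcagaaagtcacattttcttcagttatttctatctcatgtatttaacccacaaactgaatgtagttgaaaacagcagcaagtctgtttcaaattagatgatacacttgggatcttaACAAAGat
Col9a1 region 20: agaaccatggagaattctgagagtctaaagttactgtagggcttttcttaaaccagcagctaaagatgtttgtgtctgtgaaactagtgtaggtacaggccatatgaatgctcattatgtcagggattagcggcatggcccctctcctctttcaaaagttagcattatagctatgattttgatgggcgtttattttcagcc
Col12a1 region 22: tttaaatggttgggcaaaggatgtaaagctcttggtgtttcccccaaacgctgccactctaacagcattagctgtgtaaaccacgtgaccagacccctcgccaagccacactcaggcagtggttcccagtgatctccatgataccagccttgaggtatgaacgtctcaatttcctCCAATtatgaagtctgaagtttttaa
Col5a2 region 3 holds 1 homeobox word, 1 SOX word and 1 AP-1 word, and Col11a1 region 10 holds 1 TEAD and 1 SOX word. Col1a2 region 23 and Col12a1 region 22 hold 1 CCAAT each, and Col9a1 region 20 holds no word of the set.

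Over all 1451 collagen windows the shares of these words were close to those over all 382006 windows. The ACAAAG word was in 15.6% of collagen and 16.9% of all windows, the E-box in 24.7% and 20.7%, the TEAD word in 16.1% and 13.9%, and the homeobox word in 5.0% and 5.1%. Mean GC content was 47.9% and 47.8%. Among regions called in every library and over 1 kb from a start site, the AP-1 word was in 10.9% of 256 collagen windows and in 6.8% of all such windows, and the CTCF word in 6.6% and 9.0%. In the 118 collagen windows called in 1 label only, the AACAAT word was in 16.9%, against 11.9% of all windows of that kind. The E-box was also the more frequent there (30.5% and 22.4%). The other SOX word, ACAAAG, was the less frequent (16.9% and 18.7%), and so was the AP-1 word (4.2% and 7.2%). These shares are descriptions with no test.

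Most collagen genes had a called start site in every library. A promoter was counted as called in a library where a peak overlapped 1 kb on either side of any start site of the gene. It was called in all 6 libraries for 36 of 44 collagen genes (81.8%), beside 65.6% of all protein-coding genes. By class these were 10 of 11 fibrillar, 8 of 9 FACIT, 6 of 6 basement membrane, 4 of 6 beaded filament, 3 of 4 transmembrane, 2 of 3 short-chain and 2 of 2 multiplexin genes (collagens XV and XVIII), and 1 of the 2 others. The promoter of Col10a1, the collagen of hypertrophic cartilage, was called in 0 libraries. The same held for Col17a1, which links basal epithelial cells to their basement membrane, Col7a1, the collagen of anchoring fibrils, Col20a1 (a FACIT) and Col6a4 (a beaded filament chain). Col11a2, Col28a1 and Col6a5 were called in 5, 5 and 1 libraries. No depth can be given, so an absent call says only that no peak was listed.

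The strength of a promoter is given as the fold of its strongest peak over the local background of its own library and as the percentile of that peak in its own list. The strongest peak is the one with the highest −log10 q, and percentiles are ranks by −log10 q. Over the genes with a call, the median percentile was 84.2 to 89.3 per library for collagen genes and 94.6 to 96.1 for all protein-coding genes, and in each library the collagen median was the lower one. Col11a1, whose chain helps to start the thin fibrils of cartilage, ranked highest of all collagen promoters by median percentile. Its fold was 10.3 and 9.05 in the libraries labelled maxillary process, 9.74 and 10.4 in mandibular process and 9.98 and 9.99 in nose, at percentiles from 98.9 to 99.8. The 3 labels overlapped. Col11a2, the gene of another type XI chain, stood far lower, with folds of 5.64, 4.74, 4.00, 4.20 and 3.84 and no call in mandibular process replicate 2. Its percentiles ran from 28.7 to 64.5, with a median of 38.6. Below it were Col28a1, with a median of 22.8 over its 5 called libraries, and Col6a5, with 28.7 in its single one.

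The chains of type I collagen, the main collagen of bone and dermis, also differed from each other. Col1a2 had folds of 11.02 and 10.1 in maxillary process, 10.2 and 10.6 in mandibular process and 11.3 and 10.1 in nose, at percentiles of 97.0 to 98.6. Col1a1 had 6.01 and 7.74 in maxillary process, 6.34 and 7.73 in mandibular process and 8.26 and 7.91 in nose, at percentiles of 79.1 to 89.4. In maxillary process replicate 1 a separate Col1a1 peak with a fold of 8.84 lay just beyond 1 kb from the start and is not in these values. With or without it, every library placed Col1a2 above Col1a1. Col3a1, which forms fibrils with type I collagen in skin and vessels, had 6.37 and 6.28, 6.29 and 5.07, and 5.06 and 6.38. Col5a1, a chain of the collagen that limits fibril width, had 9.03 and 8.98, 9.01 and 8.53, and 7.37 and 9.10.

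Among the cartilage collagens, Col2a1, the main fibrillar collagen of cartilage, had a weak promoter, with folds of 5.56 and 5.38 in maxillary process, 5.07 and 3.67 in mandibular process and 4.84 and 4.18 in nose. Its percentiles ran from 57.4 to 84.7. Within Col2a1, the strongest region was not the promoter but Col2a1 region 5 in intron 16 (chr15:97992367-97993269), with folds of 9.20 and 9.78, 11.98 and 10.8, and 10.5 and 10.4. Each library placed it above the promoter. It was picked out after its values were seen.

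Col9a1, a chain of the FACIT collagen of cartilage fibrils, has 2 annotated start sites that are more than 1 kb apart. Around the first, at chr1:24177610, a peak was called in 1 of 6 libraries (maxillary process replicate 1, fold 3.40). Around the second, at chr1:24195187, a peak was called in all 6, with folds of 8.17 and 7.95, 8.20 and 8.42, and 8.27 and 7.38. All libraries therefore had their strongest Col9a1 promoter peak around the inner start site. The strongest summit there, at chr1:24196191, lies just over 1 kb downstream of chr1:24195187. A call needs only that the peak overlaps the 1 kb window, not that its summit lies in it. In all, 5 collagen genes have start sites in groups over 1 kb apart, and 6 of their 11 groups were called in every library and 3 in none. Col18a1, the gene of a basement membrane collagen that yields endostatin, was called in every library at its upstream start (folds of 6.36 to 9.26) and in 2 libraries at its downstream start.

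The basement membrane genes are arranged in head-to-head pairs. The first annotated bases of Col4a1 and Col4a2 overlap by 22 bases, so both genes share 1 promoter value, with folds of 9.45 and 7.23, 8.65 and 7.30, and 7.67 and 9.46. Col4a3 and Col4a4 start 126 bases apart and share weaker folds of 5.43 to 7.64. These pairs count as 4 genes above but are 2 open regions.

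**Figure D1:**
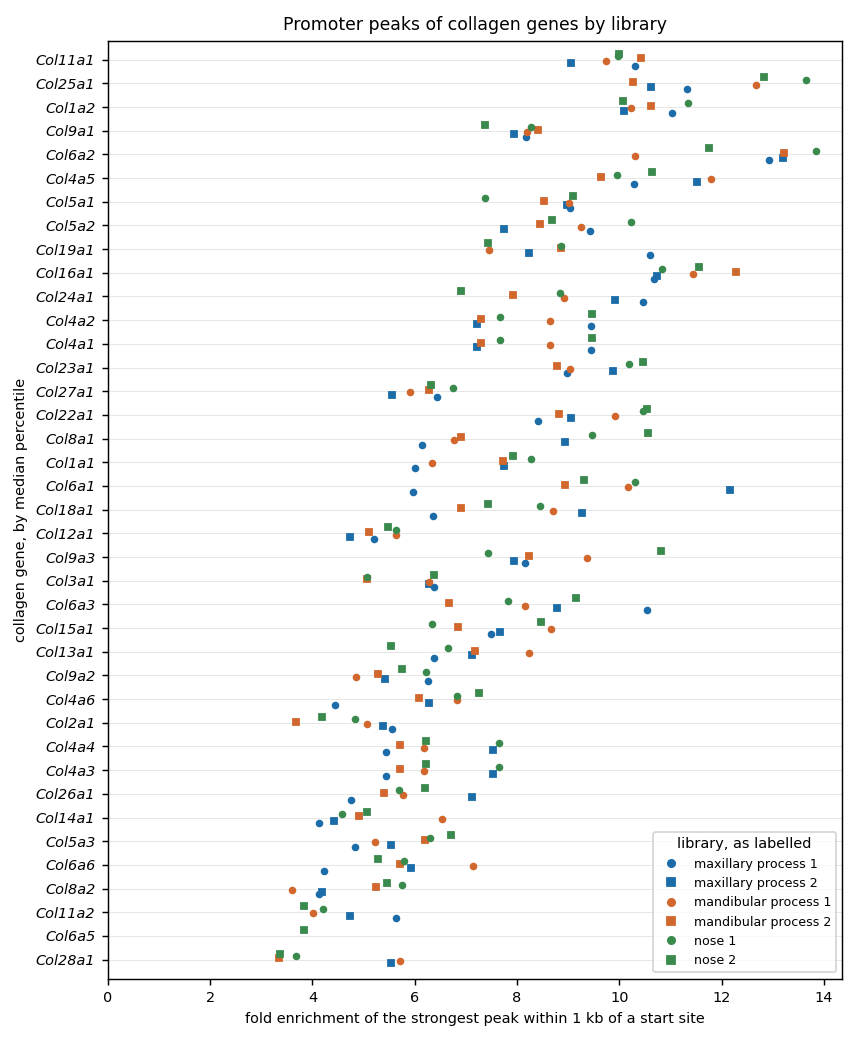
Fold enrichment of the strongest peak within 1 kb of a start site (x axis) for the 39 collagen genes with a call in at least 1 library (y axis, ordered by the median percentile of the peak), 1 point per library, coloured by label. Col11a1 stands at the top with folds of 9.05 to 10.4, and the points of the 3 labels lie among each other for most genes.

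Promoter sequence is shown for 3 start sites, of which those of Col3a1 and Col5a1 were called in all 6 libraries and the upstream one of Col9a1 in 1, as the 250 bases before the RefSeq start (GRCm38.p6), 5′ to 3′ on the gene's strand, with the motif words above and TATAAA in capitals. The stretches are chr1:45311288-45311537 for Col3a1, chr2:27886175-27886424 for Col5a1 and chr1:24177360-24177609 for Col9a1.
Col3a1: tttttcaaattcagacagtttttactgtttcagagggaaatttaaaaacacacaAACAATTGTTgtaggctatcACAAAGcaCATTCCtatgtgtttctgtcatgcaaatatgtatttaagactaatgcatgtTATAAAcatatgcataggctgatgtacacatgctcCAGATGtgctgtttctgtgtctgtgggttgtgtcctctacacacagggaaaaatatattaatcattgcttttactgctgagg
Col5a1: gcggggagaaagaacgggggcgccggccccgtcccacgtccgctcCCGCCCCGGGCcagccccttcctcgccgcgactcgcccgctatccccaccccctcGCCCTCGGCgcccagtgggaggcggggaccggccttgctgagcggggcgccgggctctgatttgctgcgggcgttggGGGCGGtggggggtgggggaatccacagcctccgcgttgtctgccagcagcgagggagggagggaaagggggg
Col9a1: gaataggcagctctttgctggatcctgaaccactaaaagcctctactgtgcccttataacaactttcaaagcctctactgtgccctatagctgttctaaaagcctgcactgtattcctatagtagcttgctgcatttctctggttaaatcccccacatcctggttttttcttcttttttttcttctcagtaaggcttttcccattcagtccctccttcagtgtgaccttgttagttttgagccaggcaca
The Col3a1 stretch is poor in GC (35.2%) and holds a TATAAA, which is found in 12.4% of the 32851 promoters of the RefSeq table. The Col5a1 stretch has 76.4% GC and holds 2 SP/KLF and 2 AP-2 words. The Col9a1 stretch has 43.6% GC and none of the words. The table held 38 promoters of 35 collagen genes. The SP/KLF word was in 22 of these 38 (57.9%), beside 32.7% of all promoters, and TATAAA in 5 of them (13.2%). In the windows around summits within 1 kb of a start site the SP/KLF share was the lower one, at 28.4% of 88 collagen windows and 37.9% of all 31574. The ETS word was in 0 of the 38 collagen promoters, beside 12.03% of all, and in 0 of the 88 windows, beside 12.5%. These shares have no test.

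Promoters of genes that act on collagen were counted in the same way. Of the genes for collagen biosynthesis in the endoplasmic reticulum (prolyl and lysyl hydroxylases, the chaperone Serpinh1 and others), 16 of 17 had promoters called in all 6 libraries. This was so for 11 of 13 genes of procollagen cleavage and cross-linking, 7 of 9 collagen receptor genes and 3 of 6 collagen-degrading protease genes. The share over all genes was 65.6%, as above.

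Away from start sites, collagen regions lay mostly in introns. Introns held 1007 of the 1451 regions (69.4%), beside 45.3% of all regions, which follows in part from the rule, since gene bodies were counted without a limit of distance. Intergenic regions were 296, promoters 88 and exons 60. Per library, 603 and 719 collagen regions were called in maxillary process, 751 and 704 in mandibular process and 670 and 717 in nose. All 6 libraries shared 298 collagen regions (20.5%, beside 18.3% of all regions), and 575 were called in 1 library (39.6%, beside 44.4%). Of the 286457 regions counted for any protein-coding gene, 20.3% were called in all 6 libraries and 42.7% in 1, so the shared part was alike. The shared regions were wide, with a median of 522 bp, and those of 1 library narrow, with a median of 92 bp.

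The number of regions per gene ranged from 1 to 119 and went with gene length. Spearman's rho between the length of the gene body and the regions inside it was 0.82 over the 44 genes, a description across genes, which share the same libraries. The genes with most regions were Col25a1 (a transmembrane collagen, 119 regions), Col24a1 (a fibrillar collagen of developing bone, 93), Col19a1 (a FACIT, 85), Col14a1 (a FACIT of dense connective tissue, 73) and Col23a1 (a transmembrane collagen, 68). These 5 genes held 30.2% of the regions and 29.1% of the summed gene body length. No collagen gene was without a region. Col10a1 had 1, called in the maxillary process libraries but in no other. Col7a1 had 1, called in all 6 at folds of 7.43 to 10.0 and lying 3.73 kb before its start site. Inside the gene bodies, the median over genes was 1.99 regions per 10 kb, and Col2a1, with a short gene body, had the most at 4.47.

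By class, regions called in all 6 libraries made up 25.9% of the 85 short-chain regions, 21.4% of the 308 FACIT regions, 20.7% of the 372 fibrillar regions and 16.9% of the 248 transmembrane regions. Basement membrane genes had 156 regions, of which 18.6% were called in all 6 libraries and 50.0% in 1 library. The genes of the beaded filament class had 122 regions, with 22.1% in all libraries.

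**Figure D2:**
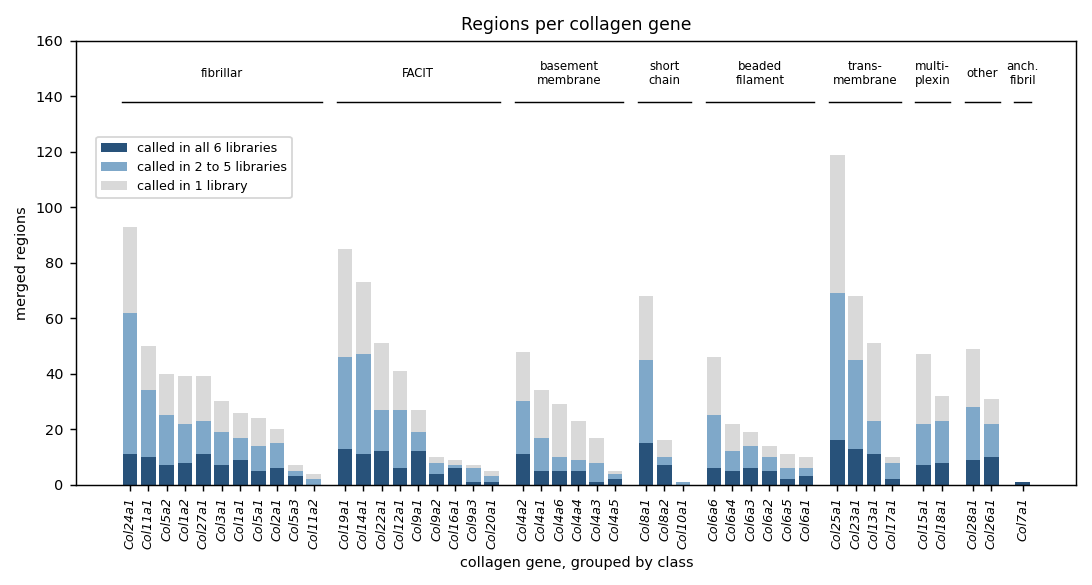
Number of merged regions (y axis) for each of the 44 collagen genes (x axis, grouped by class), split by the number of libraries in which a region was called. Col25a1 has the most with 119, of which 16 were called in all 6 libraries and 50 in 1.

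Of the collagen regions over 1 kb from a start site and called in every library, 3 had the highest rank in their weakest library. The first was Col19a1 region 84 at chr1:24613039-24613194, 25.6 kb before the gene, with folds of 28.3 to 32.4 in all 6 libraries. Of the 107 stretches of 50 bases in it, 57 (53.3%) were found letter for letter in the mouse mitochondrial genome, and its summit lies in an annotated pseudogene, Gm28438. It was the 1 collagen region with such a match, and the part of mitochondrial reads in its height was not tested. The second was Col1a2 region 23 (chr6:4489233-4490384), 15.9 kb before the start of Col1a2, whose sequence is shown above. Its folds were 11.3 and 9.49 in maxillary process, 10.2 and 12.1 in mandibular process and 9.89 and 10.3 in nose. The third was Col27a1 region 30 in intron 24 of Col27a1, a fibrillar collagen of cartilage (chr4:63290915-63291584), with folds of 11.6 and 11.3, 11.9 and 13.7, and 11.9 and 13.6. Both stood at percentiles of at least 94.6 in every list, and the labels overlapped in the second. In the third, both folds labelled maxillary process lay below the other 4, and Col27a1 region 30 had limma adjusted p-values of 0.706 to 0.988 in the 3 pairs.

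The study's labels raise the question which collagen regions are open in one facial process and not in another. The libraries of one label resembled each other more than libraries of different labels did. The Jaccard index over the collagen regions, that is, regions shared by 2 libraries as a share of the regions called in either, was 0.540 ± 0.0121 (SD over 3 pairs) for replicates of one label and 0.463 ± 0.0203 (SD over 12 pairs) for libraries of different labels. All 3 pairs of one label, at 0.527 to 0.550, lay above all 12 others, at 0.435 to 0.495. The difference was 0.0770, with p = 0.0667 in a one-sided exact permutation test over the 15 possible pairings of the 6 libraries, which is the smallest p this design allows. Over all 382006 regions the indices were 0.517 and 0.435.

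A region was then counted as differing where each library of one label had a peak in it but no library of the other label did. Between maxillary and mandibular process, 45 collagen regions (3.1%) were called in the former and not the latter, beside 3.52% of all regions. The other way there were 83 (5.72%), beside 5.4%. Between maxillary process and nose there were 62 (4.27%, beside 3.72%) and, the other way, 78 (5.38%, beside 5.72%). Between mandibular process and nose there were 91 (6.27%, beside 5.11%) and, the other way, 70 (4.82%, beside 5.21%). These shares lay near those of all regions. The counts depended on the length of the lists. When each list was limited to its 219779 best summits, the 83 became 46 and the 78 became 43, while the 45 and the 62 became 47 and 58.

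Collagen regions listed by each library of a single label but by no other library numbered 32 for maxillary process (2.21%, beside 1.91% of all regions), 44 for mandibular process (3.03%, beside 2.82%) and 42 for nose (2.89%, beside 3.18%). With lists of equal length there were 26, 26 and 28. They fell in 27 of the 44 genes, and 85 of the 118 were intronic. Fibrillar genes held 6, 18 and 11 of them for maxillary process, mandibular process and nose, and transmembrane genes 10, 6 and 4.

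**Figure D3:**
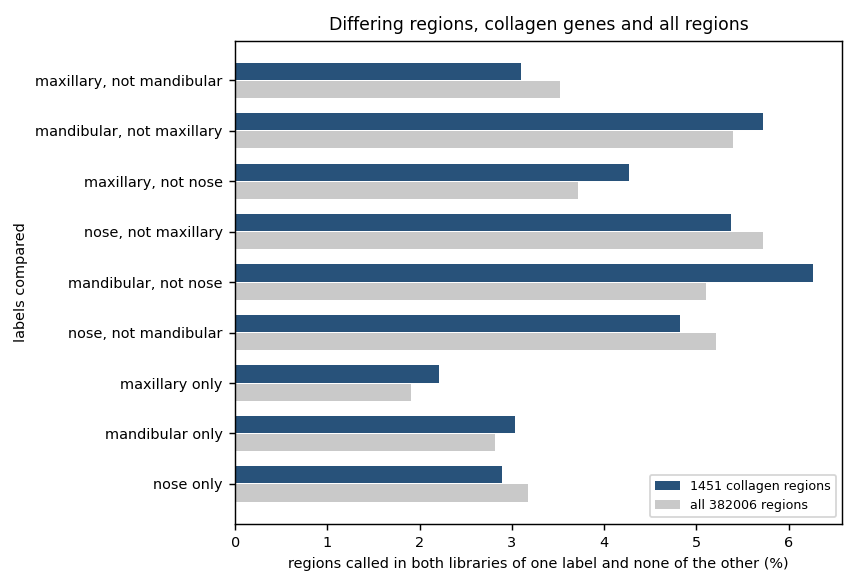
Share of regions (x axis, percent) listed by each library of one label but by no library compared with it, for collagen regions (dark bars) and all regions (grey bars), for each pair of labels in each direction and for 1 label against both others (y axis). The bars of a pair lie close together, with the largest gap for mandibular process and not nose (6.27% and 5.11%).

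By rank in the weaker library, the leading regions of 1 label were the following. For maxillary process they were Col19a1 region 48, with folds of 4.83 and 5.53, Col8a1 region 22 in intron 1 of Col8a1, a short-chain collagen (chr16:57706039-57706478), with the same folds, and Col25a1 region 35 in intron 2 of Col25a1, with 4.92 and 4.33. For mandibular process they were Col3a1 region 9, with folds of 6.37 and 7.84, Col24a1 region 7, 61.1 kb before Col24a1 (chr3:145231244-145231568), with 7.19 and 5.72, and Col5a2 region 29, 64.5 kb before Col5a2, a partner chain of Col5a1, with 5.23 and 5.24. For nose they were Col28a1 region 12, with 8.93 and 10.6, Col14a1 region 49 in intron 24 of Col14a1 (chr15:55436953-55437585), with 8.03 and 8.19, and Col22a1 region 8 in intron 49 of Col22a1, the FACIT collagen of tissue junctions, with 7.35 and 9.11. In the weaker library the nose regions stood at percentiles of 78.2 to 85.7 of their lists, the mandibular process regions at 56.4 to 70.1 and the maxillary process regions at 48.9 to 51.2. The nearest start sites of the last 2 nose regions belonged to other genes (Mtbp and Fam135b), more than 100 kb away.

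Col24a1 had the most differing regions of any collagen gene in each pair with mandibular process. Between maxillary process and nose, Col25a1 had more (10 and 5, against 1 and 9). Of the 93 regions of Col24a1, 40 had the start site of another gene as their nearest one. Its regions called per library were 22 and 40 in maxillary process, 53 and 51 in mandibular process and 37 and 39 in nose, so both libraries labelled mandibular process were above the others. In the sense above, 16 of its regions were called in mandibular but not in maxillary process, and 2 the other way. Where peaks had to cover at least 50% of a region or 200 bp, the counts were 11 and 5. The 16 were spread from 61.6 kb before the start site to 244 kb after it, 12 of them in introns, with folds between 2.77 and 7.19. Against nose, mandibular process had 12 regions and nose 6. Nose had 9 against maxillary process, which had 1. Of the 16 regions, 9 were called in mandibular process only.

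A lean of this kind was tested for each gene with at least 5 differing regions, with a two-sided binomial test (exact) whose null share was that of all differing regions of the genome, adjusted by Benjamini-Hochberg over all genes tested. No gene of the genome passed an adjusted p of 0.05 in any pair (0% of 1385, 1486 and 1629 genes), and 92, 91 and 104 genes had an unadjusted p below 0.05. Col24a1 in mandibular against maxillary process had an exact p of 0.0143 and an adjusted p of 0.538, and its adjusted p was 0.464 to 1 under the alternatives. Col25a1 had 10 regions in maxillary process and 5 in nose, with an exact p of 0.0362 and an adjusted p of 0.667. Regions in the same gene share their surroundings and do not count as replicates. Of the other genes with many differing regions, Col8a1 had 9 in mandibular against 1 in maxillary process, and Col6a6, a beaded filament chain, had 7 in nose against 2 in maxillary process and 6 in nose against 3 in mandibular process. Col14a1 had 3 to 1, 4 to 6 and 2 to 5 in the 3 pairs, and Col19a1 had 5 to 2, 4 to 5 and 3 to 5.

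**Figure D4:**
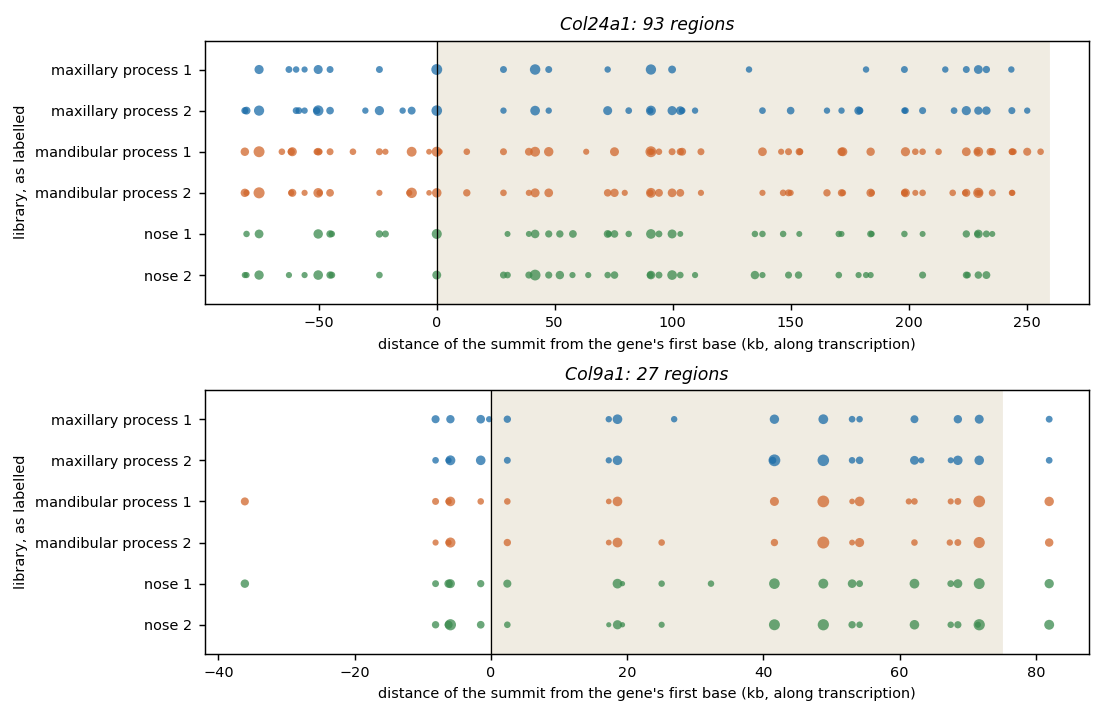
Positions of the called regions of Col24a1 (top) and Col9a1 (bottom) in each library (rows), as the distance of the region's summit from the first base of the gene in kb (x axis); the shaded band is the gene body and the area of a point is proportional to fold enrichment. Col24a1 shows 53 and 51 points in the rows labelled mandibular process and 22 to 40 in the other rows, and Col9a1 shows 16 to 19 points per row, with 12 of its 27 regions called in every row.

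The strength of the 298 collagen regions called in every library was compared with limma on the log2 of the fold, quantile normalized, with 69940 such regions of the genome in the fit and adjustment over all of them. All 6 libraries shared 1 estimate of the spread per region. It was drawn by limma toward a trend of spread with mean strength, fitted over all regions. Of the 33.98 degrees of freedom of the estimate, 30.98 came from that trend. The SEs and limma p-values below thus rest mostly on the spread of regions of like strength, not on the replicates of the region itself. Between maxillary and mandibular process, 6 collagen regions passed an adjusted p of 0.05 (2.01%, beside 1.8% of all regions), 4 higher in maxillary process (0.915% of all regions) and 2 in mandibular process (0.885%). Between maxillary process and nose 5 passed (1.68%, beside 2.09%), 1 higher in maxillary process (1.23% of all regions) and 4 in nose (0.865%). Between mandibular process and nose 15 passed (5.03%, beside 3.35%), 7 higher in mandibular process (1.89% of all regions) and 8 in nose (1.46%). In all, 23 regions of 16 genes passed in at least 1 pair (7.72%, beside 5.72% of all regions in the fit). None of them lay within 1 kb of a start site, and 15 of the 23 were intronic. Where a −log10 q of at least 3 was required in every library, 45974 regions of the genome were in the fit. In that fit 3, 0 and 5 collagen regions passed in the 3 pairs, in the same order. Leaving out either library of a pair's own labels left 0 to 3 calls in that pair. Between mandibular process and nose, leaving out either maxillary process library left 5.

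Between the jaw processes, Col11a1 region 10 (chr3:113953621-113954012), 76.7 kb before the start of Col11a1, had folds of 4.74 and 4.38 in maxillary process, 9.11 and 9.11 in mandibular process and 4.67 and 4.32 in nose. Mandibular process stood above both other labels with no overlap. The log2 difference was -1.02 ± 0.25 (SE) for maxillary minus mandibular process (limma adjusted p = 0.0279) and 0.995 ± 0.25 for mandibular process minus nose (limma adjusted p = 0.0222). Col6a3 region 17, 11.96 kb before Col6a3, the gene of the largest chain of type VI collagen, had the same order, with folds of 5.43 and 4.34, 11.4 and 8.21, and 4.73 and 5.27 (limma adjusted p = 0.0364 and 0.0400 for the same 2 comparisons). The opposite order held for Col5a2 region 3, with 6.64 and 10.8 in maxillary process, 4.28 and 3.81 in mandibular process and 6.31 and 4.80 in nose. Its log2 difference between the jaw processes was 1.10 ± 0.26 (limma adjusted p = 0.0211). The start site nearest to this region was that of Col3a1, 74.2 kb away, and it was counted for Col5a2 by the gene body. Col25a1 region 34 in intron 2 had 6.37 and 8.48 in maxillary process against 3.33 and 3.81 in mandibular process (log2 difference 1.05, limma adjusted p = 0.0216), and Col6a3 region 6 in exon 40 had 11.47 and 11.94 against 7.61 and 6.20 (0.79, limma adjusted p = 0.0227).

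Between maxillary process and nose, the region with the smallest p was Col19a1 region 65 in intron 11. Its folds were 3.62 and 7.11 in maxillary process, 8.67 and 7.94 in mandibular process and 9.93 and 12.4 in nose. The maxillary libraries differed widely from each other, and both lay below the nose libraries (log2 difference -1.17 ± 0.24, limma adjusted p = 0.00674). Col8a1 region 12 in intron 2 had 3.08 and 3.91 in maxillary process and 8.02 and 6.20 in nose (-1.10, limma adjusted p = 0.0163). The start site nearest to it was that of Cmss1, 68.4 kb away. Col15a1 region 19 in intron 2 of Col15a1, a multiplexin of basement membranes, had 3.47 and 3.79 against 6.90 and 6.14 (-0.94, limma adjusted p = 0.0330). In contrast, Col6a2 region 14, 48.5 kb before Col6a2, was stronger in both jaw processes (7.58 and 7.90, and 8.72 and 7.28) than in nose (3.15 and 4.80), with log2 differences of 0.95 and 0.98 (limma adjusted p = 0.0406 and 0.0243).

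Between mandibular process and nose, Col12a1 region 22, in an intron of a FACIT collagen of tendon and ligament, had the smallest p. Its folds were 4.74 and 3.34 in mandibular process and 9.95 and 10.1 in nose, with 6.64 and 4.34 in maxillary process. The nose libraries stood above the other 4, and the log2 difference was -1.34 ± 0.28 (limma adjusted p = 0.00494). Col3a1 region 11 (chr1:45287954-45288272), 23.3 kb before Col3a1 and close to the Col3a1 region 9 whose sequence is shown, had 7.79 and 8.62 in mandibular process, 6.36 and 6.81 in maxillary process and 3.68 and 3.84 in nose (1.08 ± 0.25, limma adjusted p = 0.0113). Col13a1 region 39, 38.1 kb before Col13a1, a transmembrane collagen, had 12.6 and 12.5 in mandibular process and 7.36 and 6.71 in nose (0.83, limma adjusted p = 0.0128).

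Col9a1 had 12 regions in the fit, and 5 of them passed in 1 pair of labels each, beside the 5.72% of all regions that passed in at least 1 pair. The gene was picked out after its values were seen, and its count has no test. The calls did not all point the same way. Region 20 in intron 36 had folds of 3.80 and 3.81 in mandibular process and 8.37 and 8.03 in nose, with 5.55 and 6.86 in maxillary process (mandibular process minus nose -1.10 ± 0.25, limma adjusted p = 0.0100). Region 17 in intron 29, with 2.82 and 3.06 against 6.54 and 4.77, and region 15 in intron 20, with 7.13 and 4.77 against 9.93 and 10.5, were also stronger in nose (limma adjusted p = 0.0181 and 0.0292). Region 18 in intron 31, about 1 kb from region 17, went the other way, with 8.16 and 7.34 in mandibular process and 4.13 and 3.78 in nose (0.94 ± 0.25, limma adjusted p = 0.0283). Region 27, past the end of the gene, had 4.12 and 3.95 in maxillary process, 7.80 and 6.28 in mandibular process and 7.61 and 8.63 in nose (maxillary process minus nose -1.04 ± 0.25, limma adjusted p = 0.0209). This region (chr1:24259341-24259738) lies between the ends of Col9a1 (24252684) and Col19a1 (24261890), nearer to that of Col19a1. It was counted for Col9a1 by its nearest start site. The region called around the inner start site of the gene, at folds of 7.38 to 8.42 in all libraries, had limma adjusted p-values of 0.935 to 0.979 in the 3 pairs (Col9a1 region 9). The remaining calls between mandibular process and nose were regions of Col14a1, Col25a1, Col26a1 and Col4a4, stronger in nose, and Col5a2 region 1, stronger in mandibular process. The start sites nearest to the Col14a1 region and to Col5a2 region 1 were those of Mtbp and Col3a1. Between the jaw processes, Col28a1 region 22 was stronger in maxillary process, with folds of 15.7 and 22.1 against 12.8 and 13.3.

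**Figure D5:**
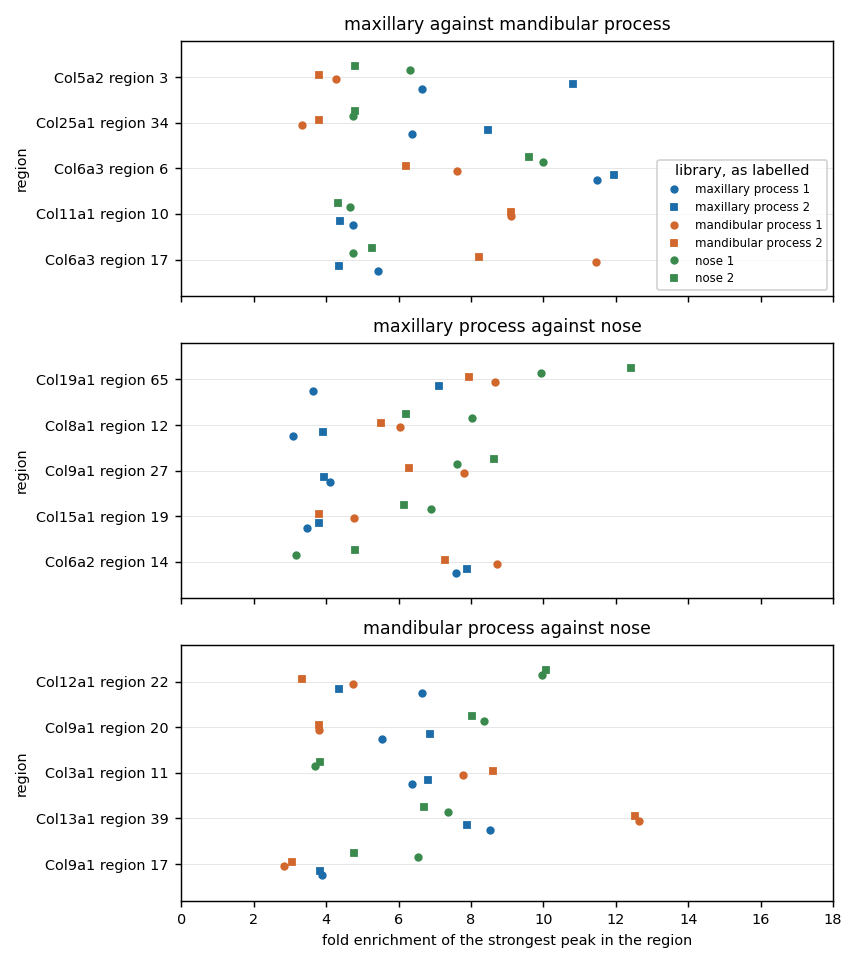
Fold enrichment (x axis) in each of the 6 libraries for the 5 collagen regions of smallest p (y axis) in each pair of labels, 1 point per library, coloured by label. In every row the points of the labels named above the panel do not overlap, while those of the third label overlap one of the 2 in some rows, as in Col6a3 region 17 and Col6a2 region 14.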

How the data were processed

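Chromatin accessibility was measured by ATAC-seq in 6 libraries, grouped by their labels. Of tools and builds, Bowtie2, SAMtools and mm10 are listed in the submitters' processing notes, and the peak caller is not given in the sources used here. For embryonic ATAC-seq in general, the study's methods describe the ENCODE pipeline with duplicate removal, subsampling of reads to a fixed number before peak calling, the Tn5 shift and blacklist removal. They do not name these mouse libraries and give another sequencer than the labels, so whether those steps were applied here is unknown. The authors deposited 1 narrowPeak list per library. The deposited columns are a score, the fold over local background (a ratio), the −log10 p and the −log10 q of each summit. Reads were not used, so no depth was computed and no detection limit can be given.

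Regions were merged with Python 3.11.15 (numpy 2.4.6, pandas 2.3.3, scipy 1.17.1, matplotlib 3.10.9). Region strength, as log2 fold, was compared with limma 3.58.1 (R 4.3.3) over regions called in every library. Both steps were tested on simulated data. The replicate numbers were not shown to pair the libraries and were not used as pairs in the main fit. Same-numbered libraries had correlations of 0.0070 to 0.065 in their deviations from the label means. With 2 libraries per label this check cannot exclude a pairing.

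The collagen genes, lists and tests were chosen with earlier results of these data known. Named were the promoters of a fixed set of collagens, up to 3 genes per direction with most differing regions, 3 regions per label by rank in the weaker library, 3 distal regions shared by all, the 5 regions of smallest p per pair and the genes with most or no regions. Other regions were named after their values were seen. Alternatives were lists of equal length, a −log10 q of at least 3, a larger overlap, 50 kb, nearest start sites only, 500 bp promoters, median scaling, the −log10 p as strength, a replicate block and leaving out each library.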

Additional observations from a re-analysis of the deposited data

How the results depend on the processing

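With lists of equal length, regions of mandibular and not maxillary process fell from 83 to 46, of nose and not maxillary process from 78 to 43, and of mandibular process only from 44 to 26. With a −log10 q of at least 3, these became 38, 31 and 25, maxillary process and not nose became 41, and maxillary process only and nose only became 17 and 21. With nearest start sites only, mandibular and not maxillary process gave 53, mandibular process only 29 and nose only 26. The other presence counts stayed within 1.5 times under these settings, the larger overlap and 50 kb. Leaving out 1 library gave 45 to 177 (maxillary and not mandibular process), 83 to 232 (the reverse), 62 to 195 (maxillary process and not nose), 78 to 221 (the reverse), 91 to 248 (mandibular process and not nose), 70 to 215 (the reverse), and 32 to 116, 51 to 170 and 45 to 162 for maxillary process, mandibular process and nose only. Fewer libraries are then required. Promoters called in every library numbered 32 to 37, and the Jaccard difference was 0.0705 to 0.0954. No collagen gene's lean passed under any alternative.

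Calls of strength moved more. For maxillary against mandibular process, maxillary process against nose and mandibular process against nose, leaving out 1 library gave 0 to 6, 0 to 4 and 0 to 5 calls, and a −log10 q of at least 3, with fewer regions tested, gave 3, 0 and 5. Of the 5 regions of smallest p per pair, only Col6a3 regions 6 and 17, Col11a1 region 10 and Col13a1 region 39 reached that −log10 q in every library. The others, all 5 between maxillary process and nose among them, were below it in at least 1 library and not in that fit. Median scaling gave 11, 8 and 19, and the −log10 p gave 17, 6 and 19. With a replicate block, 12, 9 and 18 were called, although the replicate numbers were not shown to pair the libraries. The cause of these changes was not tested.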
